A study of Mus musculus with 23 samples.

Results

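The set of Notch ligands and receptors described here holds 8 genes, the ligands Dll1, Dll4, Jag1 and Jag2 and the receptors Notch1, Notch2, Notch3 and Notch4. Dll3, a further ligand, is counted among the other genes of the pathway. The 8 members were chosen by name and not by their values, although earlier results of these data were known. All 8 were found by gene symbol among the 47643 gene identifiers of the deposited tables, and all 8 had enough reads to be tested in every comparison.

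The tumors came from female PyMT mice on a C57BL/6 background, in which the polyoma middle T oncogene, driven in mammary epithelium by the MMTV promoter, causes carcinoma, and 3′ mRNA sequencing gave 1 library per tumor sample. In the neutralization experiment, PyMT WT mice received a human IgG1 isotype control (IgG, 5 tumors) or the IL-38 antibody e04 (anti-IL-38, 6 tumors), starting when the first tumor measured 0.6 cm. In the γδ T cell experiment, which began at 13 weeks of age, PyMT WT mice received Armenian hamster IgG (WT+IgG, 4 tumors), and PyMT IL-38 KO mice received the same IgG (KO+IgG, 4 tumors) or the anti-γδ TCR antibody UC7-13D5 (KO+anti-γδTCR, 4 tumors). Antibodies were given weekly for 5 weeks, all mice carried the PyMT transgene, and WT mice with anti-γδTCR were not analysed here. The labels do not say whether each sample came from a different mouse, so p-values measure the spread between these samples. The comparisons ask whether the Notch genes differed when IL-38 was neutralized or deleted, and whether blocking γδ T cells altered them in the knockout. Reads of the gene that encodes IL-38, Il1f10, were 0 in every library, WT and KO alike, so its reads give no check of the genotype labels.

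Notch signaling passes between touching cells. A Delta-like or Jagged ligand on one cell binds a Notch receptor on its neighbor, the receptor is cleaved by an ADAM protease and then by γ-secretase, and its freed intracellular domain joins the DNA-binding protein RBPJ to switch on target genes such as Hes1. In the mammary gland Notch receptors take part in luminal cell fate, whereas Dll4 and Notch4 are known for their roles in endothelium and Notch3 for its role in the mural cells that wrap vessels.

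The libraries held between 6273049 and 15879164 reads. KO+IgG replicate 4 and the 4 KO+anti-γδTCR libraries stood apart from the other 18, with 1.31% to 1.98% of reads on processed pseudogenes against 0.0943% to 0.191%, and with 11.3% to 20.1% against 2.62% to 5.70% on the ribosomal RNA-like transcript Gm42418. All 4 blockade tumors and 1 of their 4 controls were thus on the same side of this split. The luminal epithelial markers, Epcam and Krt8 among them, were present in every tumor with summed levels in CPM (reads of a gene scaled by the total reads of its library) from 1877 to 4373, and no endothelial, mural or luminal marker was at 0 in all tumors of a group. Because a 3′ library counts 1 end of each transcript, levels below are compared between tumors and not between genes, and CPM puts all 5 groups on 1 scale although the study normalized its 2 tables separately.

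The promoter windows below (250 bases before to 50 after a transcription start, from RefSeq on build GRCm38.p6, written 5′ to 3′ on the strand of the gene) are shown for Dll1, the member with the largest difference, for Dll4, the ligand that varied with mural genes, and for Notch4, the receptor with the largest difference on γδ TCR blockade. Capitals mark matches, on either strand, to 3 short motifs: CACGNG and CACNAG, which HES repressors can bind, and CAGGAA, the core bound by ETS factors. The letters CACGAG, found in the Notch3 window, match both HES motifs, and at the start of Notch1 a pair of CACNAG matches on opposite strands overlaps.
Dll1, upstream start, chr17:15376883-15377182, minus strand: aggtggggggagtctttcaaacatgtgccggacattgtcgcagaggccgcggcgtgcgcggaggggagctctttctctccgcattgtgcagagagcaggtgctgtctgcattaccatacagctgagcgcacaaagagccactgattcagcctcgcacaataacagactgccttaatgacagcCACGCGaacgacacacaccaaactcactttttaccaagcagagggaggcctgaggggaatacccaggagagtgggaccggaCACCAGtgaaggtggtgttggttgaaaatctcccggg
Dll1, downstream start, chr17:15375774-15376073, minus strand: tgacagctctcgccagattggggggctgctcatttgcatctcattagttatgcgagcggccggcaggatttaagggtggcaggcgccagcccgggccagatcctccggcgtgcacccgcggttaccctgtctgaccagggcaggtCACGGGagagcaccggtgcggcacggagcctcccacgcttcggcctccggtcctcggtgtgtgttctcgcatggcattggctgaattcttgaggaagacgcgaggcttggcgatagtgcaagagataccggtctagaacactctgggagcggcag
Dll4, chr2:119325534-119325833, plus strand: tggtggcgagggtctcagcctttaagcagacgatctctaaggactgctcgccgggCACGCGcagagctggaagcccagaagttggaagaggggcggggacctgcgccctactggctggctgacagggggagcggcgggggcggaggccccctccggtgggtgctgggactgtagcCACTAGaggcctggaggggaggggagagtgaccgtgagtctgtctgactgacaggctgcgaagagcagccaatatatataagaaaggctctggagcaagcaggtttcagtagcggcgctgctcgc
Notch4, chr17:34564045-34564344, plus strand: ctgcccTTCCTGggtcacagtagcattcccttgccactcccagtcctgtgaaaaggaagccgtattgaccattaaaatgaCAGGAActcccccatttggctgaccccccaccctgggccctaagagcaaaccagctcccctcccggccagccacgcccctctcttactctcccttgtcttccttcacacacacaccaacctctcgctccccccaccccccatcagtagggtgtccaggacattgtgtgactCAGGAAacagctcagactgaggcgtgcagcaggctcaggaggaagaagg

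All 8 members matched the promoter table, with 9 windows since Dll1 has a pair of starts. The RBPJ core TGGGAA was in 0 of the 9 windows and in 25.6% of the 32851 windows of all genes, or 21.3% of those with a GC content within the members' range of 55.7% to 86.0%. CACGNG was in 7 of the 9, which belong to 6 members (both Dll1 starts, Dll4, Jag1, Jag2, Notch2 and Notch3), and in 27.5% of all windows, or 44.0% of those within that range. CACNAG was in 5 of the 9 and 42.5% of all windows (40.2% within the range). CAGGAA was in 2, those of Notch1 and Notch4, and in 30.6% of all windows (23.9% within the range). A match describes letters and is no evidence of binding.

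Dll1 (ENSMUSG00000014773), a Delta-like ligand, stood out with IL-38 inhibited. In the IgG tumors it was at 4.43, 2.31, 5.87, 7.47 and 5.14 CPM, and in the anti-IL-38 tumors it ranged from 7.77 to 16.7 CPM with a median of 11.6. The WT+IgG tumors held 5.05, 4.37, 6.22 and 8.96 CPM and the KO+IgG tumors 13.6, 9.10, 15.1 and 10.6 CPM. Every anti-IL-38 tumor lay above every IgG tumor, and every KO+IgG tumor above every WT+IgG tumor. Such a complete separation was seen upward for 0.4%, downward for 0.644% and in either direction for 1.04% of genes tested in the antibody comparison. In the knockout comparison these shares were 3.66%, 3.41% and 7.06%. With both forms of inhibition set against both controls, 9 of 10 tumors lay above the highest control in normalized counts and 8 of 10 in CPM, and 0% of genes tested separated completely in either direction.

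On the log2 scale of normalized counts, Dll1 was higher by 1.32 (SE 0.30) with anti-IL-38, by 1.02 (SE 0.26) in KO tumors and by 1.19 (SE 0.21) over both, that is 2.50-fold, 2.02-fold and 2.28-fold. These differences had adjusted p = 0.326, 0.224 and 0.0734 over all genes tested in limma and did not pass 0.05. The two-sided exact permutation test of Dll1 alone gave p = 0.00216 and p = 0.0286 for the single comparisons, each the smallest that the design allows, and p = 2.17e-05 for the combined one, unadjusted. DESeq2 gave adjusted p = 0.0154, 0.0280 and 0.000168 and edgeR 0.394, 0.256 and 0.0995, so the call of Dll1 depended on the tool. The DESeq2 values were the lowest of ranges that reached 0.712, 0.554 and 0.480 over the alternatives. Of these, 0.712 and 0.480 came from limma with the mean of the luminal markers as a term. In the combined comparison Dll1 also passed in limma without WT+IgG replicate 4, the control with the highest Dll1 (adjusted p = 0.0288), and without IgG replicate 3 (adjusted p = 0.0350). Neither the combined fit nor its permutation test accounted for the experiment, and with the experiment as a term in limma Dll1 had adjusted p = 0.0858.

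After γδ TCR blockade, Dll1 was at 7.49, 11.2, 8.61 and 9.21 CPM in the 4 KO tumors. Replicates 2 and 4 were within the range of the KO+IgG tumors, and replicates 1 and 3 lay below it and within the range of the WT+IgG tumors. The group means ran from 5.04 ± 1.90 CPM (SD, n = 5) in IgG and 6.15 ± 2.02 (SD, n = 4) in WT+IgG, through 9.13 ± 1.56 (SD, n = 4) with blockade, to 11.9 ± 3.52 (SD, n = 6) with anti-IL-38 and 12.1 ± 2.73 (SD, n = 4) in KO+IgG. Of the steps in this order only that from WT+IgG to the blockade group exceeded the larger SD of its neighbors. The difference to KO+IgG was −0.21 on the log2 scale with a 95% interval from −0.71 to 0.28, and −0.39 in CPM, a scale on which the median of all genes was also lower (−0.15 against 0.02). The blockade was tested against the same KO+IgG libraries as the knockout, so both results share those 4 tumors.

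**Figure D1:**
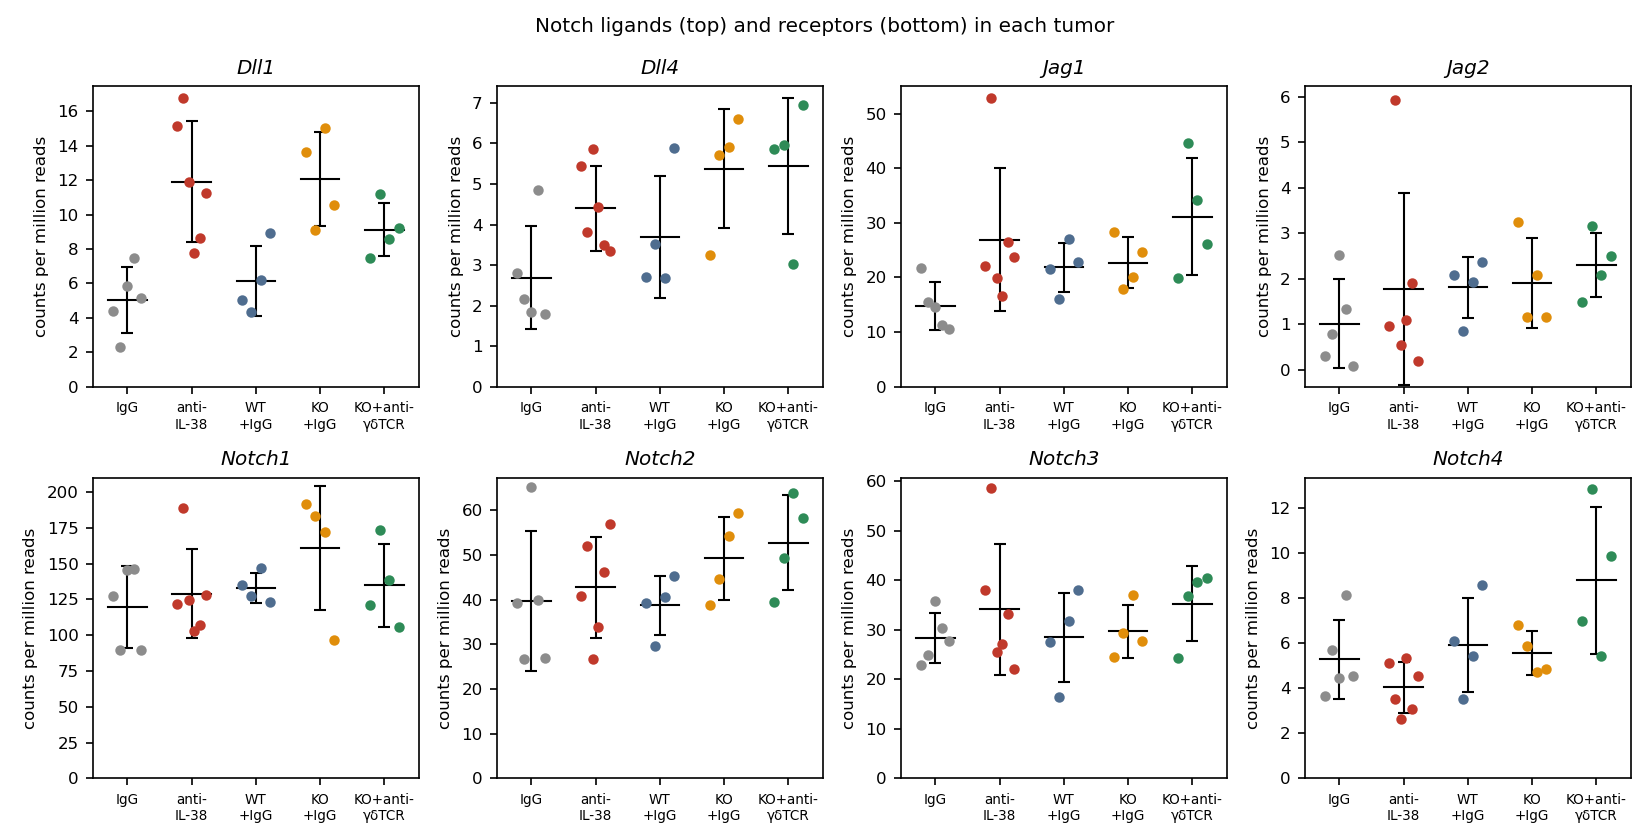
Each panel plots 1 Notch gene in CPM, with 1 point per tumor in the 5 groups, and the line and bar give the mean and SD. Dll1 separates the anti-IL-38 and KO+IgG tumors from their controls, whereas each receptor overlaps between every group and its control, and anti-IL-38 replicate 2 is the highest tumor for Jag1 (52.9), Jag2 (5.92) and Notch3 (58.7).

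Dll4 (ENSMUSG00000027314), the Delta-like ligand known from sprouting vessels, was higher by less and with overlap. It was at 2.80, 2.17, 1.84, 4.86 and 1.79 CPM in IgG tumors and from 3.35 to 5.86 CPM, with a median of 4.13, in anti-IL-38 tumors. WT+IgG tumors had 2.70, 3.51, 2.69 and 5.88 CPM, KO+IgG tumors 3.25, 5.71, 5.92 and 6.61 CPM, and tumors with γδ TCR blockade 5.87, 5.96, 3.03 and 6.94 CPM. Replicate 4 was the highest tumor of both control groups, and every pair of groups compared overlapped. In normalized counts all 10 inhibited tumors lay above the median of the 9 controls, but only 3 of 10 above the highest. In CPM 2 of 10 lay above the highest control. Dll4 was higher by 0.71 over both forms of inhibition (SE 0.22, adjusted p = 0.312 in limma, exact permutation p = 0.00613), by 0.81 with the antibody (SE 0.30, adjusted p = 0.425) and by 0.58 in KO (SE 0.33, adjusted p = 0.485), and the difference on blockade was 0.18 (95% interval −0.54 to 0.89). In CPM the blockade difference was 0.0045, with 1 tumor above and 1 below every KO+IgG tumor.

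The summed level of the mural cell markers ranged from 71.6 to 125 CPM in IgG tumors, 91.8 to 236 in anti-IL-38, 88.6 to 137 in WT+IgG and 134 to 170 in KO+IgG, and their log2 differences over both forms of inhibition were from 0.01 to 0.97 (median 0.50). In limma 4 of 9 were higher at an unadjusted p under 0.05, against 6.42% of all genes tested, and 0 after adjustment. edgeR gave 3 and 0, and DESeq2 gave 3 and 1, the gene Mcam. Their first-listed genes, the receptor gene Pdgfrb and Rgs5, had 8.02 ± 2.86 and 42.1 ± 6.58 CPM in IgG (SD, n = 5) and 12.2 ± 2.84 and 39.7 ± 13.3 CPM with anti-IL-38 (SD, n = 6). The part of the mural genes in the difference of Dll4 was not tested. The 12 endothelial genes had a median log2 difference of 0.16, 9 of 12 were higher and 0 were at an unadjusted p under 0.05. With their mean as a term in the limma fit the Dll4 difference was 0.58 over both forms (adjusted p = 0.481). With that term it was 0.70 with the antibody (adjusted p = 0.562) and 0.39 in KO (adjusted p = 0.706). The part of the endothelial genes in the difference of Dll4 was not tested either. In bulk tumor RNA, fewer cells of a type and less RNA per cell cannot be told apart.

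Jag1 (ENSMUSG00000027276), a Jagged ligand, was higher with the antibody and had a difference near 0 in the knockout. IgG tumors had 21.8, 15.5, 14.6, 11.4 and 10.6 CPM, and anti-IL-38 tumors ranged from 16.6 to 52.9 CPM with a median of 22.9. WT+IgG tumors had 21.5, 16.1, 27.0 and 22.9 CPM and KO+IgG tumors 28.4, 17.8, 20.2 and 24.6 CPM. In normalized counts 5 of 6 anti-IL-38 tumors exceeded every IgG tumor, and in CPM 4 of 6, while the WT+IgG and KO+IgG tumors overlapped. The mean of IgG, 14.8 ± 4.44 CPM (SD, n = 5), was below that of WT+IgG, 21.9 ± 4.50 CPM (SD, n = 4), by more than either SD, although both groups were isotype controls in PyMT WT mice.

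The log2 difference of Jag1 was 0.85 with the antibody (SE 0.27, adjusted p = 0.412 in limma, exact permutation p = 0.0108) and 0.08 in KO (95% interval −0.36 to 0.52). The antibody effect minus the knockout effect was 0.77 (95% interval −0.01 to 1.55, adjusted p = 0.655 in limma), and without anti-IL-38 replicate 2, which alone held 52.9 CPM, the antibody difference was 0.63. On γδ TCR blockade Jag1 was at 19.9, 44.6, 34.1 and 26.0 CPM, 3 of 4 tumors above every KO+IgG tumor in normalized counts and 2 of 4 in CPM, with a difference of 0.59 (SE 0.26, adjusted p = 0.220 in limma, exact permutation p = 0.114). All 10 luminal epithelial markers had a positive difference over both forms pooled (median 0.28, 3 of 10 at an unadjusted p under 0.05 in limma, 2 in edgeR and 3 in DESeq2, 0 after adjustment in each) and with the antibody alone (median 0.44). In KO alone 7 of 10 did (median 0.22), and Krt19 (−0.74), Krt18 (−0.29) and Krt8 (−0.27) had lower means, Krt19 past the adjusted threshold in DESeq2 only. The part of these genes in the level of Jag1 was not tested. With their mean as a term the antibody difference of Jag1 was 0.55 and that of the blockade 0.30, against 1.16 for Dll1 with the antibody.

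Jag2 (ENSMUSG00000002799), the other Jagged ligand, was the member with the fewest reads, from 1 to 82 per library. It ranged from 0.0744 to 2.53 CPM in IgG, 0.197 to 5.92 in anti-IL-38, 0.858 to 2.37 in WT+IgG, 1.16 to 3.25 in KO+IgG and up to 3.15 with γδ TCR blockade. All groups overlapped. Its antibody difference of 0.74 had a 95% interval from −1.02 to 2.51, and that in KO, 0.06, one from −0.92 to 1.04. The antibody difference was 0.27 without replicate 2, which alone held 5.92 CPM, and ranged from 0.19 to 1.22 over the tumors left out in turn. With the luminal score as a term it was −1.53, and that in KO 0.16.

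Among the receptors, Notch1 (ENSMUSG00000026923) had means from 120 ± 28.6 CPM in IgG (SD, n = 5) to 161 ± 43.5 CPM in KO+IgG (SD, n = 4). Among the KO+IgG tumors it was at 191, 183 and 172 CPM in replicates 1 to 3, above all WT+IgG tumors (123 to 147 CPM), and at 96.7 CPM, below all of them, in replicate 4, the library with many pseudogene reads. The knockout difference of 0.25 (SE 0.20, adjusted p = 0.620 in limma) was 0.47 without that library (adjusted p = 0.131).

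Notch2 (ENSMUSG00000027878) had its lowest mean in WT+IgG, 38.7 ± 6.61 CPM (SD, n = 4), and its highest with γδ TCR blockade, 52.7 ± 10.6 CPM (SD, n = 4). No 2 neighbors in the order of its 5 group means differed by more than the larger SD. Its KO difference was 0.37 (95% interval −0.03 to 0.77, adjusted p = 0.431 in limma), and 2 of 4 KO+IgG tumors lay above every WT+IgG tumor.

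Notch3 (ENSMUSG00000038146) ranged from 16.5 CPM in a WT+IgG tumor to 58.7 CPM in anti-IL-38 replicate 2. Its log2 differences were 0.26 with the antibody, 0.13 in KO and 0.41 on blockade (95% interval −0.05 to 0.87), with 3 of 4 blockade tumors above every KO+IgG tumor in normalized counts. In CPM the blockade difference was 0.24, with 2 of 4 tumors above and 1 below every KO+IgG tumor. Without anti-IL-38 replicate 2 the antibody difference was 0.085. With the luminal score as a term the antibody difference was −0.23 and the blockade difference 0.12.

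Notch4 (ENSMUSG00000015468), known from endothelium, was the only member with lower means with the antibody and over both forms of inhibition (−0.33, 95% interval −0.89 to 0.24, and −0.20, 95% interval −0.60 to 0.20). It was at 3.65, 5.70, 4.44, 8.15 and 4.54 CPM in IgG tumors and from 2.61 to 5.33 CPM, with a median of 4.04, in anti-IL-38 tumors, where 2 of 6 lay below every IgG tumor in normalized counts. WT+IgG and KO+IgG tumors had means of 5.91 ± 2.10 and 5.57 ± 0.973 CPM (SD, n = 4 each) and did not separate.

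On γδ TCR blockade Notch4 had 73.3, 126, 61.5 and 95.7 normalized counts against 60.4, 51.9, 43.7 and 46.4 in the KO+IgG tumors. All 4 tumors lay above every control, replicate 3 by a narrow margin, as 4.57% of all genes tested did. A further 4.98% lay wholly below, 9.54% in either direction. The log2 difference was 0.76 (SE 0.27, adjusted p = 0.127 in limma, 0.0773 to 0.423 over the alternatives), and the exact permutation test gave p = 0.0286, the smallest that 4 against 4 allows. In CPM the groups overlapped, with 3 of 4 tumors above the controls and a difference of 0.59, and without blockade replicate 2 the difference was 0.58. Beside it, the pan-leukocyte markers summed to 360 to 424 CPM with blockade and 411 to 1120 CPM in KO+IgG, with the lowest of the latter in replicate 4, while the endothelial markers summed to 139 to 252 and 171 to 207 CPM. With the endothelial score as a term Notch4 was higher by 0.70. The part of the lower leukocyte RNA and of the split between libraries in this difference was not tested.

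**Figure D2:**
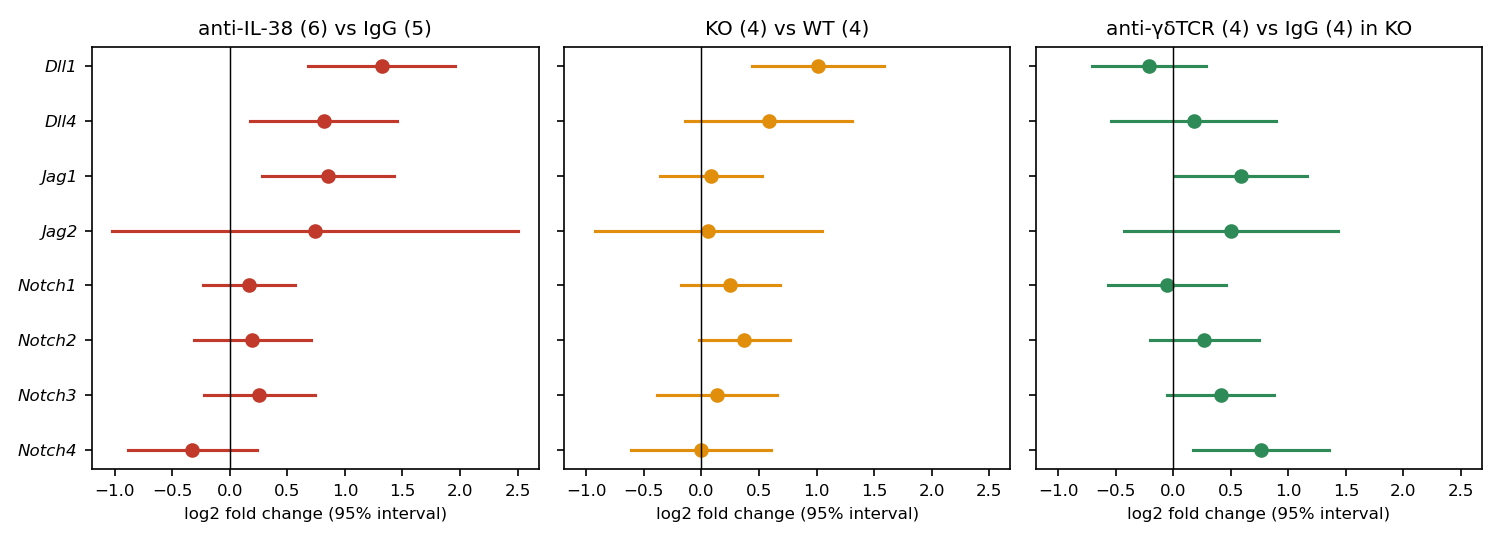
Points give the log2 fold change of each Notch gene and lines its 95% interval from limma, for the antibody, the knockout and γδ TCR blockade in the knockout. The interval of Dll1 lies above 0 in the first 2 panels, with estimates of 1.32 and 1.02, and Notch4 has the largest estimate in the third, 0.76.

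Over all 8 members, 0 passed the adjusted threshold in limma in any comparison, as 0% of genes tested did over both forms of inhibition, with the antibody and on blockade, and 0.00604% (1 gene) in KO. edgeR called 0 members in each of the 4 comparisons, against 0.00612% of all genes over both forms and 0% in the others. DESeq2 called Dll1 over both forms, with the antibody and in KO, where it called 0.428%, 0.469% and 1.84% of all genes. At an unadjusted p under 0.05, 3 of 8 members (Dll1, Dll4 and Jag1, all higher) were found over both forms of inhibition, against 10.5% of all genes tested in either direction, 6.42% higher and 4.13% lower. The antibody comparison gave the same 3 genes against 10.5%, 5.61% and 4.91%. The knockout comparison gave 1 of 8 (Dll1) against 12.1%, 6.73% and 5.4%, and the blockade 2 of 8 (Jag1 and Notch4) against 21.7%, 12.7% and 9%, so the shares in these last comparisons lie near the background. Leaving out KO+IgG replicate 4 gave 3, 2 and 2 members over both forms, in KO and on blockade, and leaving out anti-IL-38 replicate 2 gave 3 members over both forms and with the antibody.

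The median log2 difference of the 8 members was 0.34 over both forms of inhibition, 0.50 with the antibody, 0.19 in KO and 0.34 on blockade, where the median of all genes was between 0.00 and 0.02. Without anti-IL-38 replicate 2 the first and second of these were 0.21 and 0.20, and without IgG replicate 5 they were 0.22 and 0.22. Without WT+IgG replicate 2 the KO median was 0.10, and in CPM the blockade median was 0.16 where that of all genes was −0.15. With the luminal score as a term the medians were 0.12, −0.11, 0.21 and 0.12. In each comparison but the last 7 of 8 members had a positive difference, and on blockade 6 of 8. The antibody and knockout effects were not shown to differ for any member (adjusted p of the difference from 0.655 to 0.958 in limma, 0 of 8 at an unadjusted p under 0.05 against 7.67% of all genes in either direction, 4.24% higher and 3.43% lower, and 0.00612%, 1 gene, after adjustment). DESeq2 and edgeR each had 1 member, Jag1, at an unadjusted p under 0.05 for that difference.

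Levels per tumor were then related to each other over the 19 tumors of the IgG, anti-IL-38, WT+IgG and KO+IgG groups. The mean of each group was subtracted first, so that a relation reflects tumors of the same group, and p-values came from 100000 permutations within groups, adjusted over the 68 relations computed (28 between members and 40 with marker scores). Of these, 51 were positive and the median Pearson r was 0.27. The points are the same 19 libraries in every relation, so the depth and cell makeup of a tumor enter all 68.

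Among members, the closest pair was Jag2 and Notch3 (r = 0.68, permutation p = 0.00327, adjusted 0.0743, Spearman rho = 0.56, permutation p = 0.0198, adjusted 0.336). Without the 2 tumors farthest from the median of Jag2 r was 0.74, and it was 0.78 within the neutralization experiment and 0.49 within the genotype comparison. Dll1 varied with Notch3 (r = 0.60, permutation p = 0.0106, adjusted 0.143, rho = 0.65, permutation p = 0.00736, adjusted 0.250), with 0.55 and 0.70 in the 2 experiments and 0.66 without the extreme pair. Dll1 with Notch1 (r = 0.55, permutation p = 0.0238, adjusted 0.270, rho = 0.56, permutation p = 0.0255, adjusted 0.347) had 0.76 in the neutralization experiment and 0.08 in the genotype comparison, and 0.41 without the extreme pair. Notch2 with Notch3 had r = 0.47 (permutation p = 0.0415, adjusted 0.335) and rho = 0.47 (permutation p = 0.0550, adjusted 0.374), with 0.36 and 0.77 in the experiments and 0.36 without the extreme pair. None of the 28 pairs passed the adjusted threshold. The Delta-like ligands Dll1 and Dll4 had r = 0.34 with each other (permutation p = 0.215, adjusted 0.443) and rho = 0.31 (permutation p = 0.239, adjusted 0.512).

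**Figure D3:**
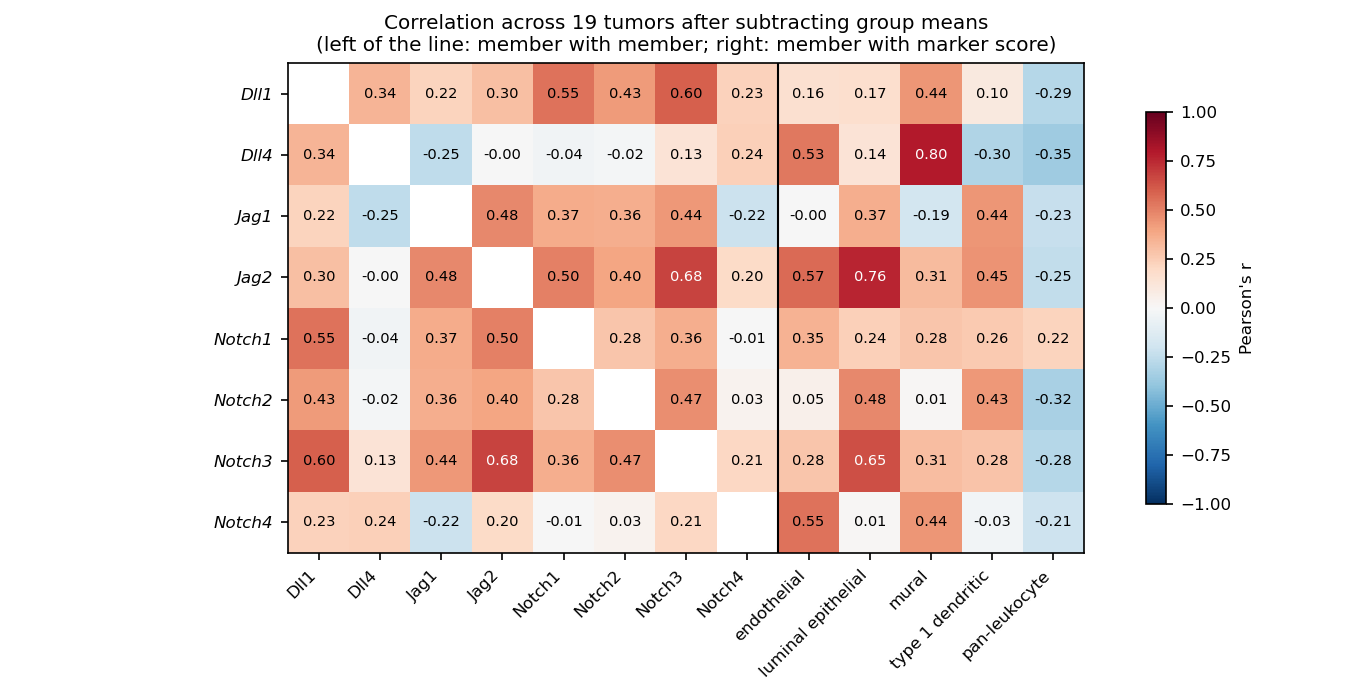
The grid gives Pearson's r over 19 tumors after subtracting group means, between members on the left of the line and between members and the mean of marker genes on the right, red for positive and blue for negative. The largest value is 0.80 for Dll4 with the mural score, and values for pan-leukocyte markers are negative for all members except Notch1. That of Notch1, 0.22, was −0.66 within the neutralization experiment and 0.85 within the genotype comparison. Over the tumors left out in turn it ran from −0.53 to 0.32, so its sign rested on single tumors.

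The scores are means of log2 values of 12 endothelial, 10 luminal epithelial, 9 mural, 6 type 1 dendritic and 5 pan-leukocyte genes. Dll4 with the mural score was the single relation of 68 that passed (r = 0.80, permutation p = 0.00025, adjusted 0.0170). Its rho was 0.74 (permutation p = 0.00089, adjusted 0.0605), and r was 0.86 within the neutralization experiment and 0.75 within the genotype comparison. It was 0.64 without the 2 tumors farthest from the median of the mural score. In each relation with a score, the extreme pair left out is the 2 tumors farthest from the median of that score. Of all genes compared, 0.0673% had an r with the mural score at least as large. Leaving out 1 tumor at a time kept r between 0.71 and 0.85, and the adjusted p no longer passed in 6 of these 19 fits. With the endothelial score Dll4 had r = 0.53 (permutation p = 0.0443, adjusted 0.335) and rho = 0.47 (permutation p = 0.0724, adjusted 0.379). Without the extreme pair of the endothelial score r was 0.24, so that relation rested on those tumors.

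Notch4 had r = 0.55 with the endothelial score (permutation p = 0.0329, adjusted 0.319), rho = 0.51 (permutation p = 0.0549, adjusted 0.374), and 0.66 and 0.29 in the 2 experiments, with 0.49 without the extreme pair. Jag2 had r = 0.76 with the luminal epithelial score (permutation p = 0.00328, adjusted 0.0743) and rho = 0.55 (permutation p = 0.0363, adjusted 0.374). That relation did not hold within both experiments, with r = 0.93 in the neutralization experiment and −0.27 in the genotype comparison (8 tumors, permutation p = 0.528). It was 0.56 without the extreme pair and 0.69 to 0.85 over the tumors left out in turn. Without KO+IgG replicate 1 (adjusted permutation p = 0.0181) or replicate 4 (adjusted permutation p = 0.0360) the relation passed. Notch3 had r = 0.65 with the same score (permutation p = 0.00478, adjusted 0.0813), rho = 0.59 (permutation p = 0.0144, adjusted 0.327), 0.74 and 0.45 in the experiments and 0.50 without the extreme pair. Jag2 had r = 0.57 with the endothelial score (permutation p = 0.0506, adjusted 0.344) and rho = 0.55 (permutation p = 0.0547, adjusted 0.374), with 0.63 and 0.12 in the experiments.

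Dll1 had r = 0.44 with the mural score (permutation p = 0.115, adjusted 0.425), rho = 0.44 (permutation p = 0.102, adjusted 0.423), 0.46 and 0.40 in the experiments and 0.28 without the extreme pair. Its r was 0.16 with the endothelial, 0.17 with the luminal and 0.10 with the type 1 dendritic score (permutation p = 0.656, 0.579 and 0.714). With the pan-leukocyte score Dll1 had r = −0.29 (permutation p = 0.195, adjusted 0.443) and rho = −0.49 (permutation p = 0.0424, adjusted 0.374), and the 2 experiments gave −0.66 and −0.06.

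**Figure D4:**
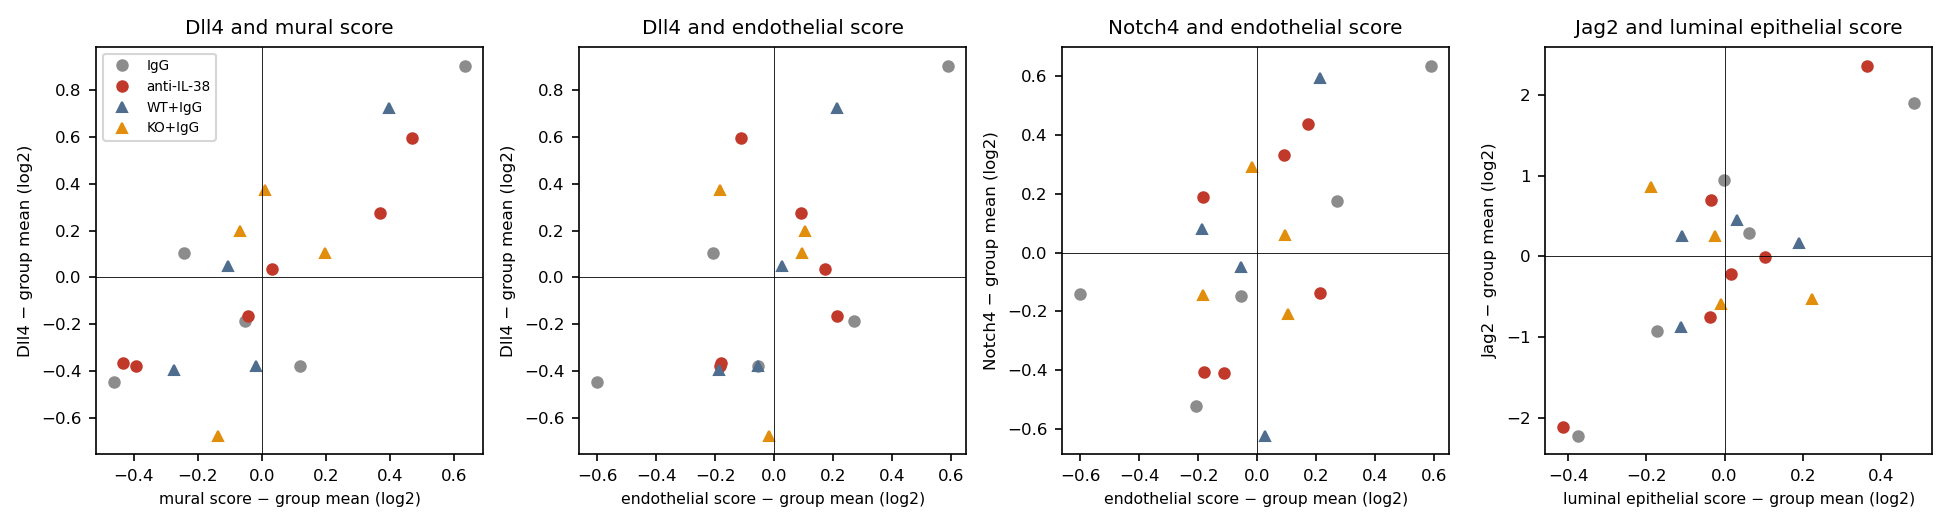
Each point is 1 tumor, with circles for the neutralization experiment and triangles for the genotype comparison, and both axes show log2 values after subtracting the group mean. Dll4 follows the mural score in both kinds of symbols (r = 0.86 and 0.75), whereas Jag2 follows the luminal score only among circles (r = 0.93 against −0.27 among the 8 triangles).

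The genes whose pattern over the 19 tumors was most like that of each member were taken as the 5 with the highest r among those with a mean of at least 20 normalized counts, as a description with no test. For Dll1 these were Adpgk (0.90), Sav1 (0.84), Slc35b3 (0.83), Fat1 (0.82) and Ric8b (0.81). For Dll4 they were Tex15 (0.81), Adgrl4 (0.79), Mfsd4a (0.76), Atp6v0a4 (0.75) and Col5a3 (0.75), of which Adgrl4 encodes an endothelial adhesion receptor. For Notch4 they were Meg3 (0.86), Nemp2 (0.83), Loxl1 (0.83), Lamb1 (0.77) and Col6a2 (0.77), of which Loxl1, Lamb1 and Col6a2 encode matrix proteins or an enzyme that crosslinks them.

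The neighbors of Jag1 were led by Msx2 (0.85) and Cops7a (0.84), followed by Nmnat3, Ctse and AW112010. Those of Jag2 were Hs3st6 (0.91), Gsg1l (0.91), Ephb1, Slc5a7 and Sspn, and those of Notch1 included Atp8b2 (0.84), Ormdl1, Ggh and Rcn2. Notch2 was nearest to Irs1 (0.82), Mgst1, Zswim4, Pcsk7 and A930015D03Rik, and Notch3 to Tmem184b (0.81), the basement membrane receptor and matrix genes Bcam (0.79) and Nid1 (0.79), Slc28a2 and Psmd5. None of the 40 nearest genes belongs to the marker lists.

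Of the 39 other genes of the pathway (further ligands, glycosyltransferases, proteases, endocytic regulators, nuclear partners and targets), 35 were tested over both forms of inhibition. In limma 0 passed the adjusted threshold in either direction. At an unadjusted p under 0.05, 3 were higher and 1 lower, against 6.42% and 4.13% of all genes tested. For these pathway genes edgeR and DESeq2 gave the same counts. The smallest p-values belonged to the target gene Hes1 (0.50, SE 0.14) and the receptor protease gene Adam10 (0.34, SE 0.10). With the antibody 3 were higher and 2 lower at that unadjusted level, against 5.61% and 4.91% of all genes. The smallest p-values there were those of the γ-secretase subunit gene Aph1c (−0.36) and the ubiquitin ligase gene Mib2 (0.41). In KO 6 of 34 were higher and 0 lower, against 6.73% and 5.4% of all genes. They were led by Adam10 (0.44), the γ-secretase subunit gene Ncstn (0.55) and Hes1 (0.59), with adjusted p from 0.286 to 0.310 in limma. On blockade 4 of 36 were higher and 3 lower, near the background of 12.7% and 9% of all genes. They were led by Furin (0.75), which encodes the protease that matures the receptors, Mib1 (−0.61), whose product lets ligands be taken up, and Lfng (1.47), a glycosyltransferase gene that modifies the receptors, with adjusted p from 0.0657 to 0.0666 in limma. There edgeR called 0 of 36, and DESeq2 called 5 (Aph1c, Furin, Lfng, Mib1 and Numb) and 6.29% of all genes. Without KO+IgG replicate 4, limma called 9 of 35 (those 5 and Dner, Fbxw7, Hey1 and Psen2) and 14.3% of all genes. With that replicate left out, the blockade cannot be told apart from the split between libraries in pseudogene and Gm42418 reads. The part of this split in the other blockade calls was not tested. The median over the pathway genes tested was 0.10, 0.08, 0.05 and 0.05 in the 4 comparisons, below that of the 8 members in each.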

How the data were processed

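Polyadenylated RNA of 23 tumors was sequenced from its 3′ end (QuantSeq). The authors deposited the signal as normalized counts, that is reads per gene divided by 1 size factor per library, in a table of 19 libraries and one of 8, normalized separately, and the 4 KO+IgG libraries are in both. The submitters' processing notes name STAR, HTSeq, DESeq2 and GRCm39, without versions. Whole reads were recovered from the steps of the values, within 0.0001% of a whole number for every value, except in WT+IgG replicate 1, where 1 read was worth 0.996 and the values were rounded. All columns were used.

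limma 3.58.1 (R 4.3.3, trended variance) was fitted to log2 values with a pseudocount of 1, for genes whose normalized counts averaged 5 or more, with Benjamini-Hochberg adjustment over all genes tested and a threshold of 0.05. The 5 fits were the antibody, the knockout, both together, their difference, and γδ TCR blockade. The log2 scale understates changes of genes with few reads. Two-sided exact permutation tests of single genes (32 in all) are unadjusted. Those over both forms of inhibition, like the limma fit over both, did not separate the experiments. Alternatives were edgeR 4.0.16 and DESeq2 1.42.0 on the recovered reads, other pseudocounts, filters and scalings, terms for marker scores, and each library left out. Calls were checked on simulated data with the same dispersion for every gene and no split between libraries. That check cannot show how calls hold in tumors that differ as these do. Depths of 6273049 to 15879164 reads give 1 to 82 reads for Jag2 and 834 to 2737 for Notch1. Figures and relations used Python 3.11.15, numpy 2.4.6 and scipy 1.17.1.

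Groups came from the labels. The text names all 8 members, the 3 pathway genes with the smallest p in each comparison and any past the adjusted threshold, the 5 nearest genes of each member, and the first 2 genes of a marker list, apart from some results that are not reported here. Numb, Mcam, Krt18, Krt19 and the further pathway genes called by another fit were named after their values were seen. The members and lists were chosen with earlier results of these data known. Proteins and gene coordinates on GRCm39 were not used here.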

Additional observations from a re-analysis of the deposited data

Results flagged for a closer look

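Of the 40 combinations of a member and a group, 3 held a tumor far from the others, all in anti-IL-38 replicate 2. This tumor had 52.9 CPM of Jag1 where the other 5 of its group ranged from 16.6 to 26.4 CPM, 5.92 CPM of Jag2 where they ranged from 0.197 to 1.92 CPM, and 189 CPM of Notch1 where they ranged from 103 to 128 CPM. Chance alone flags about 1 in 20 groups, and the 3 values come from 1 library.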

How the results depend on the processing

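Of 726 alternative values of the members, 702 kept their direction. With the luminal score as a term, Jag2 (−0.57) and Notch3 (−0.090) reversed over both forms of inhibition, Jag2 (−1.53), Notch1 (−0.12), Notch2 (−0.10) and Notch3 (−0.23) with the antibody, Notch4 (0.0012) in KO, and Notch1 (0.12) and Notch2 (−0.13) on blockade; the cause was not tested. The genes called, 0, 0, 1, 0 and 1 for both forms, the antibody, the knockout, the blockade and the difference of effects, were 1, 0, 0, 0 and 0 in edgeR and 70, 75, 305, 1036 and 22 in DESeq2, which called 1 member, Dll1, in each of the first 3. The luminal term and the experiment term each called 1 gene over both forms, and the endothelial term 1219 on blockade. Replicate numbers do not pair the samples (r of same-numbered samples from −0.17 to 0.07, and not every sample was closest to its own number). With the replicate block 1 gene was called with the antibody, 0 in KO and 1 for the difference, and 2 members had an unadjusted p under 0.05 in KO. On blockade 1 member had one with TMM scaling, 0 with CPM scaling and 1 with the luminal term. Without KO+IgG replicate 4 the blockade cannot be told apart from the split between libraries. Leaving out 1 library gave 0 to 23, 0 to 6, 0 to 7, 0 to 2357 (highest without KO+IgG replicate 4) and 0 to 2 genes, 0 to 1 members called over both forms, and 3 to 4, 3 to 3, 1 to 3 and 0 to 3 members at an unadjusted p under 0.05. It moved the KO values of Jag1 from −0.042 to 0.20, Jag2 from −0.23 to 0.26, Notch3 from −0.091 to 0.29 and Notch4 from −0.21 to 0.19, the blockade values of Dll4 from −0.057 to 0.39 and Notch1 from −0.26 to 0.084, and the difference of effects of Dll4 from −0.0093 to 0.46, Notch1 from −0.31 to 0.0079, Notch2 from −0.29 to 0.036 and Notch3 from −0.049 to 0.35. Of the relations, 4 passed without subtraction of group means, 0 within either experiment and 0 to 3 without 1 tumor, and Jag2 with the luminal score was −0.27 within the genotype comparison. CPM scaling, the counts of members at an unadjusted p and the calls of list genes by other fits were added after the data were seen. Few reads limit Jag2 (1 to 82 per library), Dll4 (19 to 94), Notch4 (33 to 110) and also Dll1 (32 to 239).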

Other observations

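Other cell type markers differed between the groups beside the Notch genes. In the KO tumors the 6 type 1 dendritic cell markers summed to 12.9 to 28.5 CPM against 34.2 to 39.7 CPM in WT+IgG, with 4 of 6 lower (median log2 difference −0.61). In limma 3 were lower at an unadjusted p under 0.05, against 5.4% of all genes tested, and 0 after adjustment. With the antibody 4 of 6 were higher (median 0.37), 1 of them at that level, against 5.61% of all genes. Over both forms of inhibition 3 were higher and 3 lower. The lower means in KO were not particular to dendritic markers. There all 5 pan-leukocyte markers (median −0.66), all 7 macrophage markers (median −0.47) and 4 of 5 T cell markers (median −0.61) were also lower. With γδ TCR blockade the dendritic markers summed to at most 16.6 CPM, and the macrophage markers to 655 to 1064 CPM against 853 to 2095 CPM in KO+IgG. KO+IgG replicate 4, like the blockade libraries, held many pseudogene reads. Its dendritic score was the lowest of the KO+IgG tumors (4.15 against 4.40 to 5.03, log2). The part of this split between libraries in these levels was not tested. Skeletal muscle markers ranged from 10.9 to 379 CPM in KO+IgG and up to 66.7 CPM in WT+IgG, so the amount of muscle RNA varied widely between tumors.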
